A study of Mus musculus with 9 samples.

Results

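The neural crest glial and pigment cell genes described here are Sox10, Sox8, Fabp7, Ednrb, Mitf, Dct, Kit and Pmel, 8 of the 54532 genes in the deposited table. They were chosen by name, and all 8 were found there under their own symbol. Expression was measured by RNA-seq in the lambdoidal junction, the region of the embryonic mouse face where the maxillary, lateral nasal and medial nasal prominences meet and fuse into the upper lip and primary palate. The study compared 3 stages of C57BL/6J mouse embryos that spanned this fusion, with 3 libraries made on embryonic day (E) 10.5, 3 on day E11.5 and 3 on day E12.5. No transgene, mutation or treatment is given for any group, and stage is the only difference between the groups in the labels. Each library was made from the pooled tissue of many embryos, so that the 3 libraries of a stage show the spread between pools and not between embryos. The whole dissected tissue was sequenced, and in such bulk RNA fewer cells of a type and less RNA per cell cannot be told apart.

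Sox10-expressing neural crest cells give rise to the glia that line the cranial nerves, including the Schwann cell precursors, and part of the pigment cells of the skin arises from these precursors along the nerves. Entry into the pigment lineage is marked by the transcription factor Mitf, which activates melanosome genes such as Dct and Pmel, and the cells depend on the receptors Kit and Ednrb. Most of these genes also serve in other cells of the embryonic head. Mitf, Dct and Pmel are active in the pigment layer of the retina, Fabp7 in the radial glia of the neural tube, and Kit in blood progenitors and mast cells.

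Total counts were between 16581009 and 20836804 per library. Within each stage, no pair of libraries came close to sampling noise, with a chi-square per degree of freedom of 4.19 or more. E10.5 replicate 3 stood apart from the other 2 libraries of its stage, with a chi-square per degree of freedom of 57 and 61.6 against 6.24 between those 2, and its log2 difference from each of them followed GC content (Spearman's rho across genes 0.52 and 0.54). E10.5 replicate 1 was the highest library for some of the pigment and retina genes, and E10.5 replicate 3 for other retina genes, as described with those genes. Levels below are CPM, the counts of a gene relative to the library size, which was scaled by the trimmed mean of M-values, and the error is the SD over 3 libraries. A DEG had an adjusted p of at most 0.05 and a log2 fold change of at least 1 in either direction in the quasi-likelihood test of edgeR, adjusted over all genes tested by the Benjamini-Hochberg method, and this test gave every adjusted p below that is not credited to DESeq2. With 3 libraries against 3, an exact permutation test of a single gene cannot give a p below 0.1.

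Sox10 rose at each step, Fabp7 fell from E10.5 to E11.5, and Kit and Mitf fell over the whole span. All 8 genes passed the filter on low counts in every comparison. Between E10.5 and E11.5, 2 of the 8 were DEGs, beside 6.07% of all genes tested: Sox10 rose, as did 3.46% of all genes, and Fabp7 fell, as did 2.61%. Between E11.5 and E12.5, 2 of the 8 were DEGs, Sox10 and Dct, and both rose, beside 5.10% of all genes called and 4.14% that rose. Between E10.5 and E12.5, 4 of the 8 were DEGs, beside 15.0% of all genes: Sox10 rose, as did 9.97% of all genes, and Fabp7, Kit and Mitf fell, as did 5.08%. When the 3 stages were tested together, 7 of the 8 passed an adjusted p of 0.05, beside 28.3% of all genes, and Sox8 did not (adjusted p = 0.0616).

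The median log2 fold change of the 8 genes was -0.82, 0.88 and -0.76 in the 3 comparisons in this order, beside medians of -0.032, 0.019 and -0.006 over all genes. In the first interval the E11.5 libraries lay wholly below the E10.5 libraries for 6 genes and wholly above for 1, and such separation was seen in 36.7% of all genes (18.3% below and 18.3% above). In the second interval, 5 genes lay wholly above and 1 wholly below, beside 35.3% of all genes (18.5% above and 16.8% below). Over the whole span, 2 lay wholly above and 4 wholly below, beside 42.4% (22.0% above and 20.4% below). The 3 comparisons share libraries and are not independent of each other.

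**Figure D1:**
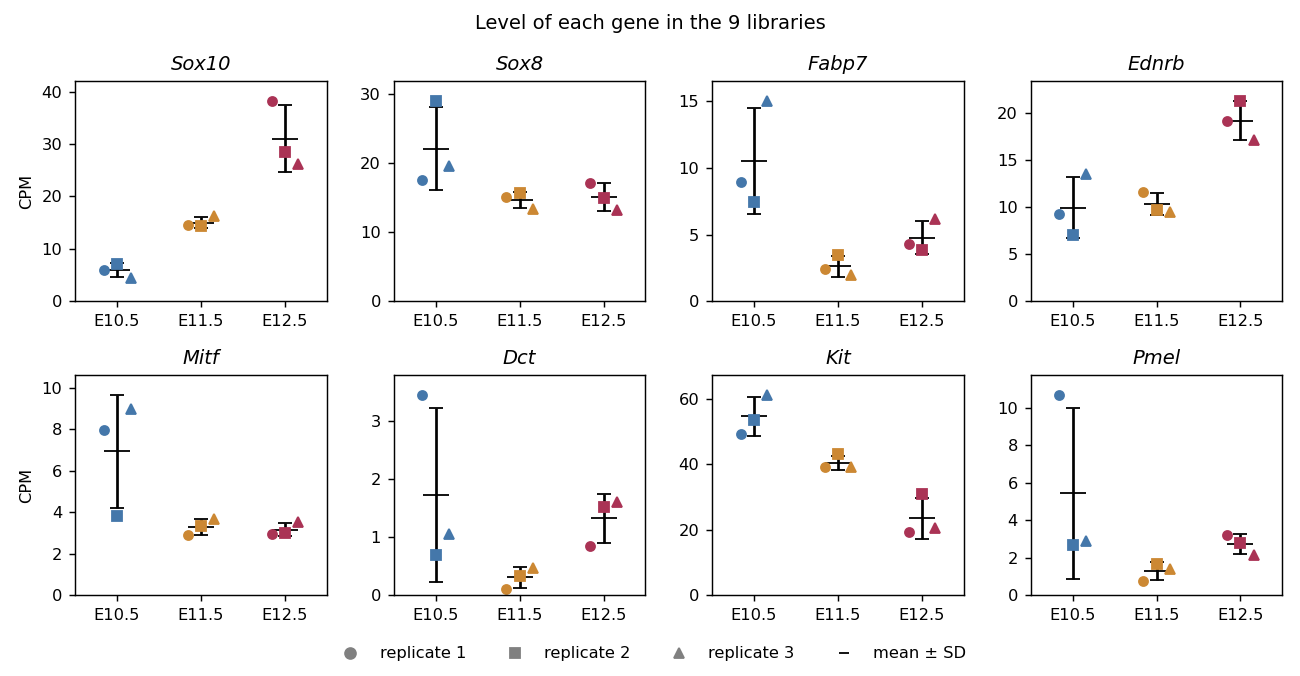
Level of each of the 8 genes in CPM (y axis, a separate scale for each gene) in every library of the 3 stages (x axis), with a symbol for each replicate and a bar for the mean ± SD of 3 libraries. Sox10 rises over the 3 stages and Kit falls, while Dct and Pmel are carried at E10.5 by replicate 1, at 3.45 and 10.7 CPM.

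**Figure D2:**
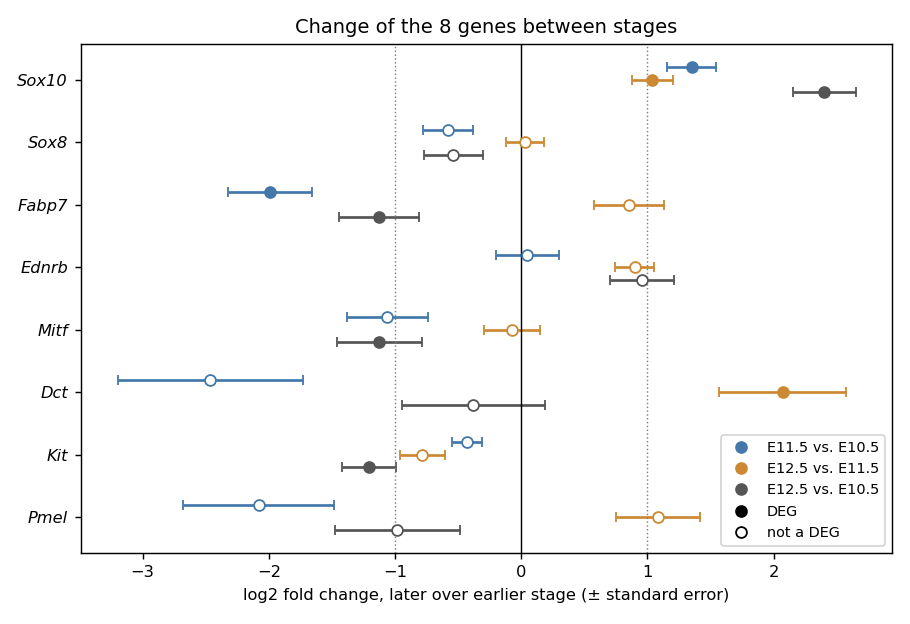
Log2 fold change with its standard error, positive where the later stage is higher (x axis) for each of the 8 genes (y axis) in the 3 comparisons, with filled points for DEGs and open points for the others, and dotted lines at a log2 fold change of 1 in either direction. Sox10 is filled in all 3 comparisons, and Sox8, Ednrb and Pmel in none.

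Sox10 encodes the SoxE transcription factor that neural crest cells keep when they become glia or pigment cells. The gene lies on the minus strand of chromosome 15 (15:79154908-79165240, GRCm38). At E10.5 it stood at 5.94, 7.20 and 4.52 CPM in replicates 1, 2 and 3. The E11.5 libraries held 14.5, 14.4 and 16.2 CPM and those of E12.5 held 38.2, 28.5 and 26.2 CPM. The 3 stages did not overlap. Sox10 was therefore 2.55-fold higher at E11.5 than at E10.5 (log2 1.35, SE 0.20, adjusted p = 0.00554 in edgeR) and 2.05-fold higher at E12.5 than at E11.5 (log2 1.04, SE 0.16, adjusted p = 0.00252). Over the whole span the rise was 5.28-fold (log2 2.40, SE 0.25, adjusted p = 6.27e-05). The changes in the 2 intervals differed by -0.30 on the log2 scale (SE 0.34, adjusted p = 0.779 in edgeR), so that no change of pace was detectable. Sox10 transcripts had a GC content of 61.8%, and the lowest level was that of E10.5 replicate 3, the library that differed along GC content. The second rise lay close to the fold threshold: its log2 fold change was 0.80 once a trend with GC content was removed, 0.99 in the fit that left out E11.5 replicate 2 and 0.87 in that without E12.5 replicate 1, each with an adjusted p below the threshold (edgeR, 0.00565, 0.0204 and 0.0158) but no longer a DEG.

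Sox8, a SoxE relative of Sox10 with overlapping functions in crest derivatives, lies at 17:25565892-25570686 on the minus strand and took a different course. It stood at 17.6, 29.0 and 19.6 CPM at E10.5. The E11.5 libraries held 15.1, 15.7 and 13.4 CPM and the E12.5 libraries 17.2, 14.9 and 13.2 CPM. The 3 libraries of E10.5 were the highest of the 9, with replicate 2 above the rest, and E11.5 and E12.5 overlapped. Sox8 passed no test between stages (E11.5 vs. E10.5 log2 -0.58, SE 0.20, adjusted p = 0.104 in edgeR). Its log2 fold change from E11.5 to E12.5 was 0.03 with an SE of 0.15. Of the exon sequence of Sox8, 10.6% is shared with 2810468N07Rik on the opposite strand, a gene with a mean of 3.58 to 3.90 CPM over the stages, and the strand setting of the count is not given in the sources used here.

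Ednrb encodes the receptor for endothelins that glial and melanocyte precursors need during migration. The gene lies at 14:103814625-103844402 on the minus strand. It stood at 9.27, 7.08 and 13.5 CPM at E10.5 and at 11.6, 9.71 and 9.48 CPM at E11.5, with the stages overlapping. At E12.5 it reached 19.2, 21.3 and 17.2 CPM, above all 6 earlier libraries. From E10.5 to E11.5 the log2 fold change was 0.05 (SE 0.25, adjusted p = 0.92 in edgeR). From E11.5 to E12.5 Ednrb was 1.86-fold higher (log2 0.90, SE 0.15, adjusted p = 0.00413 in edgeR), which passed the adjusted p but not the fold threshold. The value over the whole span, a log2 fold change of 0.96 (SE 0.26, adjusted p = 0.0197 in edgeR), also stayed under that threshold and passed it in 5 of 15 other fits: with upper quartile normalization (1.02), with a GC trend removed (1.01, or 1.03 with a replicate block), and without E10.5 replicate 3 (1.25) or E12.5 replicate 3 (1.03).

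Fabp7, the brain lipid-binding protein of radial glia and of early Schwann cell precursors, lies at 10:57784881-57788450 on the plus strand. Its levels were lowest in the middle stage. It stood at 8.97, 7.43 and 15.0 CPM at E10.5, with replicate 3 highest. It then stood at 2.42, 3.46 and 1.95 CPM in the E11.5 libraries and at 4.28, 3.88 and 6.14 CPM in those of E12.5. The E11.5 libraries were the lowest of the 9 and the E10.5 libraries the highest. Fabp7 was 3.98-fold lower at E11.5 than at E10.5 (log2 -1.99, SE 0.33, adjusted p = 0.00908 in edgeR), and it remained 2.18-fold lower at E12.5 than at E10.5 (log2 -1.13, SE 0.32, adjusted p = 0.0243). The log2 fold change from E11.5 to E12.5 was 0.85 (SE 0.28, adjusted p = 0.0702). The difference between the 2 intervals was 2.86 on the log2 scale (SE 0.58, adjusted p = 0.0346 in edgeR), and Fabp7 was the only one of the 8 genes to pass this test, beside 1.18% of all genes. The call for the first interval was lost without E11.5 replicate 1 (log2 -1.94, adjusted p = 0.0672 in edgeR) or without E11.5 replicate 3 (-1.82, 0.0544). The call for the whole span was lost without E10.5 replicate 3 (-0.77, 0.0456), without E12.5 replicate 1 (-1.06, 0.0987) or without E12.5 replicate 2 (-0.99, 0.0824).

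Most listed genes of the neuroepithelium, where Fabp7 is also expressed, fell with Fabp7 in the first interval and did not rise with it in the second. Of 8 such genes (Sox1, Sox2, Sox3, Pax6, Nes, Hes5, Nr2e1 and Emx2), 7 fell from E10.5 to E11.5, beside 2.61% of all genes. The same count fell from E10.5 to E12.5, beside 5.08%. Emx2 rose from E11.5 to E12.5 and over the whole span (log2 2.06, adjusted p = 7.36e-05 in edgeR). In the second interval, the median log2 fold change of the 7 tested was -0.45, against 0.85 for Fabp7. The E12.5 libraries lay wholly below those of E11.5 for 3 genes and wholly above for 1. The summed level of the 8 genes ran from 512 to 645 CPM at E10.5, from 181 to 227 CPM at E11.5 and from 190 to 234 CPM at E12.5. Their part in the level of Fabp7 was not tested.

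The glial and Schwann cell precursor genes listed beside the 8 were Erbb3, Cdh19, S100b, Ngfr, Gfra3, Egr2, Pou3f1, Mbp, Gap43, Gfap, Dhh and Mal. Of these 12 genes, 7 could be tested between E10.5 and E11.5. There 2 rose (Gfra3 and Cdh19) and 1 fell (Pou3f1), beside 3.46% and 2.61% of all genes. Between E11.5 and E12.5, 3 of the 8 tested rose (Ngfr, Pou3f1 and S100b), beside 4.14% of all genes. Over the whole span 4 of the 8 tested rose (Gap43, Gfra3, Cdh19 and S100b) and Pou3f1 fell, beside 9.97% and 5.08%. The median log2 fold changes over the tested genes were 0.27, 0.82 and 1.1, beside -0.032, 0.019 and -0.006 over all genes. Cdh19 was close to the threshold in the first interval (log2 1.18, adjusted p = 0.0408 in edgeR), and its call was lost in 8 of 15 other fits, among them DESeq2 (adjusted p = 0.0523) and 5 of the 6 with a library left out (adjusted p 0.0866 to 0.163 in edgeR). Over the whole span, the call of Cdh19 was lost in 3 of 15 other fits (adjusted p 0.0507 to 0.058 in edgeR). That of Pou3f1 (log2 -1.04) was lost in 4 of 15, at a log2 fold change of -0.98 to -0.96. The count for the first interval was 1 without E11.5 replicate 1, that for the second was 5 without E12.5 replicate 3, and that for the whole span was 3 without E12.5 replicate 2.

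Gfra3, the artemin co-receptor, had 9, 5 and 7 counts at E10.5, 44, 33 and 37 at E11.5, and 79, 69 and 54 at E12.5. Its 3 stages did not overlap, as for Sox10, and over the whole span it rose 8.99-fold (log2 3.17, SE 0.38, adjusted p = 0.000193 in edgeR). S100b, a calcium-binding protein of more mature glia, had 2, 0 and 0 counts at E10.5, 4, 1 and 0 at E11.5, and 17, 43 and 17 at E12.5. It was thus near the limit of detection before E12.5, where it was at least 7.97-fold higher than a floor of 3 counts in each E10.5 library.

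Gap43, a growth-associated protein of Schwann cell precursors and of growing axons, rose from 40.8 ± 5.83 CPM at E10.5 to 121 ± 25.3 CPM at E12.5 (n = 3 each), 2.98-fold (log2 1.58, SE 0.21, adjusted p = 0.000317 in edgeR). Ngfr, the low-affinity neurotrophin receptor, stood at 48.4, 36.2 and 18.6 CPM at E10.5, overlapping with 27.5 ± 2.20 CPM at E11.5 (n = 3). It was 2.10-fold higher at E12.5 than at E11.5, at 57.9 ± 4.47 CPM (log2 1.07, SE 0.13, adjusted p = 0.0005 in edgeR), and it was no longer a DEG with a GC trend removed (0.92) or without E11.5 replicate 1 (0.99). Pou3f1, a POU factor of promyelinating Schwann cells and of early ectoderm and brain, took the course of Fabp7, with 9.32 ± 1.55 CPM at E10.5, then 1.35 ± 0.518 and then 4.51 ± 0.458 CPM (n = 3 each). The difference between its 2 intervals was 4.50 on the log2 scale (SE 0.52, adjusted p = 0.00186 in edgeR). Erbb3, the neuregulin receptor on which Schwann cell precursors depend, was not a DEG in any comparison, with 47.7 ± 7.97, 57.4 ± 3.53 and 51.2 ± 14.1 CPM and a whole-span log2 fold change of 0.11 (SE 0.23, adjusted p = 0.759 in edgeR).

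**Figure D3:**
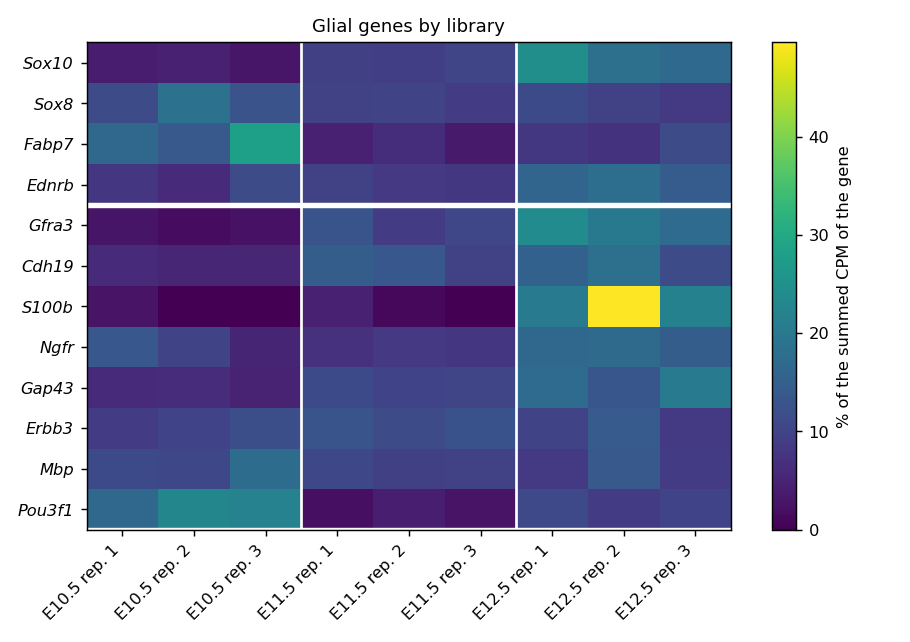
Share of the summed CPM of each gene (colour, in percent of the sum over 9 libraries) found in each library (x axis), for the 4 genes of glial or shared function among the 8 (above the white line) and 8 further glial genes (y axis). Sox10, Gfra3 and Gap43 brighten toward E12.5, Fabp7 and Pou3f1 are brightest at E10.5, and Erbb3 is even.

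Neurons and the crest regulators were set beside these genes. Of 9 neuronal genes, 2 rose over the whole span (Stmn2 and Prph) and 2 fell (Isl1 and Pou4f1), beside 9.97% and 5.08% of all genes. Their median log2 fold change over the whole span was 0.12, beside -0.006 over all genes. The summed level of the 9 was 173 to 205 CPM at E10.5, 192 to 210 CPM at E11.5 and 280 to 311 CPM at E12.5. Stmn2 and Gap43, both expressed in growing axons, rose over the whole span, as Sox10 did. Within E12.5, Sox10 was highest in replicate 1 (24.6% of its summed CPM) and Gap43 in replicate 3 (20.5%). The part of nerve tissue in the Sox10 rise was not tested. Of 11 neural crest regulators, 4 rose over the whole span (Zeb2, Pax3, Snai2 and Foxd3), beside 9.97% of all genes, and 7 were not DEGs. Foxd3, the forkhead factor that marks crest progenitors and Schwann cell precursors, had 30, 33 and 7 counts at E10.5, 47, 77 and 58 at E11.5, and 153, 88 and 108 at E12.5. Its stages did not overlap. The whole-span rise was 4.78-fold (log2 2.26, SE 0.45, adjusted p = 0.00474 in edgeR).

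Kit encodes the receptor tyrosine kinase for stem cell factor, which melanoblasts need for survival and dispersal. It lies at 5:75574916-75656722 on the plus strand and had the highest counts of the 8 genes at E10.5 and E11.5, in part because its transcript is long. It stood at 49.2, 53.5 and 61.2 CPM at E10.5. It then read 39.1, 43.0 and 39.2 CPM in the E11.5 libraries and 19.2, 30.8 and 20.6 CPM in those of E12.5. The 3 stages did not overlap, each being lower than the one before. Over the whole span Kit fell 2.31-fold (log2 -1.21, SE 0.22, adjusted p = 0.00246 in edgeR), and this call held in all 15 other fits, with adjusted p between 2.19e-06 and 0.0207. The log2 fold change was -0.43 in the first interval (SE 0.12, adjusted p = 0.0537 in edgeR) and -0.79 in the second (SE 0.18, adjusted p = 0.0175), which passed the adjusted p but not the fold threshold. Without E12.5 replicate 2, the highest library of its stage, the second value was -1.03.

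The ligands of Kit and Ednrb did not move past the thresholds. Of Kitl (stem cell factor), Edn3 (endothelin 3), Ece1 (which activates endothelins) and Nrg1 (the ligand of Erbb3), 0 were DEGs in any of the 3 comparisons by edgeR or by DESeq2, and 1, 0 and 1 of them had an unadjusted p under 0.05. Kitl stood at 43.4 ± 18.9, 33.2 ± 2.02 and 29.4 ± 6.38 CPM over the 3 stages (n = 3 each). Edn3 stood at 13.3 ± 2.10, 20.4 ± 0.270 and 19.0 ± 2.60 CPM, with a log2 fold change of 0.63 in the first interval (SE 0.15, adjusted p = 0.036 in edgeR), under the fold threshold.

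No gene of the mast cell and blood progenitor list or of the endothelial list was a DEG that fell in any comparison, as Kit did over the whole span. Of 8 mast cell and blood progenitor genes, 5 could be tested over the whole span. Of these 5, 3 rose (Runx1, Cpa3 and Hdc), beside 9.97% of all genes. Ptprc, of the same list, was not a DEG. E12.5 replicates 1 and 3 held 7.23% and 7.96% of its summed CPM over the 9 libraries, less than any E10.5 library. E12.5 replicate 2 held 11.1% and overlapped with E10.5, and it was the highest library of its stage, as for Kit. Fcer1a, Tpsb2 and Cma1 had 3 counts or fewer in every library. Cpa3, the mast cell carboxypeptidase, had 0, 0 and 1 counts at E10.5, 2, 12 and 4 at E11.5 and 37, 30 and 33 at E12.5. Of 6 endothelial genes, 0 were DEGs in any comparison by edgeR or by DESeq2, with 0, 1 and 0 at an unadjusted p under 0.05. Their summed level was 308, 301 and 114 CPM at E10.5, with replicate 3 far below the other 8 libraries (247 to 314 CPM). The same library had the highest level of Kit, and the part of these cells in the fall of Kit was not tested.

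Mitf encodes the transcription factor that starts the pigment program, and its gene lies at 6:97807052-98021349 on the plus strand. It stood at 7.96, 3.83 and 8.98 CPM at E10.5. The E11.5 libraries had 2.91, 3.32 and 3.69 CPM, and those of E12.5 had 2.93, 3.02 and 3.52 CPM. The later 2 stages overlapped almost fully and lay below E10.5, with E10.5 replicate 2 close to them. Mitf fell 2.18-fold over the whole span (log2 -1.12, SE 0.33, adjusted p = 0.0315 in edgeR). This call was lost in 5 of 6 fits with a library left out: without E10.5 replicate 1 (-1.02, adjusted p = 0.0741), without E10.5 replicate 3 (-0.89, 0.0607) and without E12.5 replicate 1, 2 or 3 (-1.08, -1.09 and -1.21, with 0.112, 0.0844 and 0.0748). In the first interval the log2 fold change was -1.06 (SE 0.32, adjusted p = 0.0724 in edgeR), and in the second -0.07 (SE 0.22, adjusted p = 0.853). The first was a DEG in 5 of 15 other fits, among them DESeq2 (-1.06, adjusted p = 0.024) and that without E10.5 replicate 2 (-1.36, adjusted p = 0.0178 in edgeR). The table counts all starts of Mitf together, so that the transcripts used in melanocytes and in the retina were not separated.

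Dct encodes dopachrome tautomerase, an early enzyme of melanin synthesis, and lies at 14:118012790-118052244 on the minus strand. It had 58, 12 and 17 counts at E10.5, 2, 7 and 9 at E11.5 and 15, 28 and 27 at E12.5, the fewest of the 8 genes. In CPM it stood at 3.45, 0.697 and 1.05, then at 0.108, 0.337 and 0.474, then at 0.845, 1.51 and 1.61. The E11.5 libraries were the lowest of the 9, and E10.5 and E12.5 overlapped because E10.5 replicate 1 lay far above the other 2 of its stage. Dct rose 4.21-fold from E11.5 to E12.5 (log2 2.07, SE 0.50, adjusted p = 0.023 in edgeR). The call was lost without E11.5 replicate 1 (1.68, adjusted p = 0.0849), without E11.5 replicate 2 (2.13, 0.0849) or without E12.5 replicate 3 (1.90, 0.0613). It was also lost with all 9 libraries in 1 fit (2.08, adjusted p = 0.0827 in edgeR). From E10.5 to E11.5 the log2 fold change was -2.46 (SE 0.74, adjusted p = 0.0687 in edgeR), not a DEG in this test but one in DESeq2 (-2.48, adjusted p = 0.015). It was a DEG also without E10.5 replicate 3 (-2.71, adjusted p = 0.00609 in edgeR).

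Pmel, which encodes the protein of the melanosome fibrils, lies at 10:128704195-128720238 on the plus strand and followed Dct. It had 180, 46 and 47 counts at E10.5, 14, 35 and 26 at E11.5 and 57, 52 and 36 at E12.5. In CPM it stood at 10.7, 2.67 and 2.91, then at 0.753, 1.68 and 1.37, then at 3.21, 2.80 and 2.15. As with Dct, E11.5 was the lowest stage and E10.5 replicate 1 the highest library. The log2 fold change was -2.08 in the first interval (SE 0.60, adjusted p = 0.0609 in edgeR) and 1.08 in the second (SE 0.33, adjusted p = 0.0574), and neither was a DEG. The first was one in DESeq2 (-2.08, adjusted p = 0.00284) and without E10.5 replicate 3 (-2.37, adjusted p = 0.00176 in edgeR). Pmel shares 6.07% of its exon sequence with Cdk2 and Dgka, which lie on the other strand, and Cdk2 was far more abundant, at 114 ± 13.3, 117 ± 5.07 and 100 ± 4.29 CPM (n = 3 each).

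Of the 14 further pigment genes listed, 5 (Tyr, Tyrp1, Oca2, Gpr143 and Trpm1) had their highest level of the 9 libraries in E10.5 replicate 1, as Dct and Pmel did, and the other 9 did not. That library held 34.2% of the summed CPM of Dct over the 9 libraries and 37.9% of that of Pmel. It held 86.4% for Tyrp1, 79.0% for Oca2, 50.7% for Trpm1, 38.3% for Tyr and 30.0% for Gpr143, and from 0 to 16.4% for each of the other 9. Tyr (tyrosinase) had 22, 2 and 2 counts at E10.5, and Tyrp1 (a further melanin enzyme) had 25, 0 and 2. Without E10.5 replicate 1, the first-interval log2 fold changes were -1.48 for Dct (adjusted p = 0.183 in edgeR) and -1.12 for Pmel (adjusted p = 0.12). Over the whole span, Dct moved from -0.38 to 0.59 and Pmel from -0.98 to -0.04 without this library, with adjusted p between 0.175 and 0.957 in all 4 fits.

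Genes of the retina stood high in the same stage. Of the 7 retina and retinal pigment epithelium genes listed (Rax, Otx2, Six6, Rpe65, Rlbp1, Best1 and Vax2), 6 could be tested against E10.5. Of these 6, 4 fell to E11.5 and to E12.5 (Otx2, Six6, Rax and Vax2), beside 2.61% and 5.08% of all genes. The summed level of the 7 was 59.4, 43.7 and 80.5 CPM in the 3 E10.5 libraries, 17.0 to 19.0 CPM at E11.5 and 18.4 to 20.0 CPM at E12.5. Rax, an eye field homeobox gene, had 132, 25 and 50 counts at E10.5 and 0, 0 and 1 at E11.5, at least 26.7-fold lower by the floor of 3 counts per library. Rpe65, a defining enzyme of the mature pigment epithelium, had 3 counts or fewer in every library. E10.5 replicate 1 was the highest library for Rax and Vax2, replicate 3 for Otx2 and Six6, and replicate 2 was the lowest of its stage for Rax, Vax2, Six6, Mitf, Dct and Pmel. The part of eye tissue in the levels of Mitf, Dct and Pmel was not tested.

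**Figure D4:**
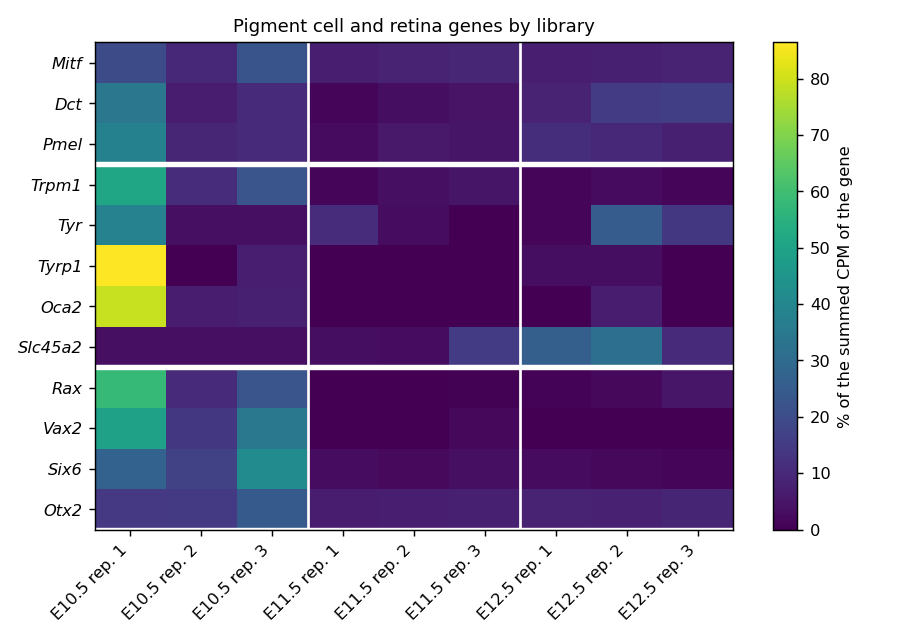
Share of the summed CPM of each gene (colour, in percent of the sum over 9 libraries) found in each library (x axis), for Mitf, Dct and Pmel (top block), 5 further pigment genes (middle) and 4 retina genes (bottom). E10.5 replicate 1 is the brightest column for Dct, Pmel, Trpm1, Tyr, Tyrp1, Oca2, Rax and Vax2, and Slc45a2 is brightest at E12.5. The pigment and retina genes drawn are part of their lists. In the whole lists, that library was the highest for 5 of 14 further pigment genes and 3 of 7 retina genes.

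Of the 14 further pigment genes, 6 had enough counts to be tested. Rab27a rose and Trpm1 fell from E10.5 to E11.5, beside 3.46% and 2.61% of all genes. Tfec fell from E11.5 to E12.5, beside 0.962%, and Trpm1 and Tfec fell over the whole span, beside 5.08%. The medians of the 6 were -0.22, -0.19 and -0.38 on the log2 scale, beside -0.032, 0.019 and -0.006 over all genes. The count fell to 1 in the first interval without E11.5 replicate 1, 2 or 3, to 0 of 6 in the second without E12.5 replicate 1 (edgeR; Tfec -1.83, adjusted p = 0.0513), and to 1 over the whole span without E10.5 replicate 1, E12.5 replicate 1 or E12.5 replicate 3. Trpm1, a cation channel of melanocytes and of retinal bipolar cells, had 493, 110 and 214 counts at E10.5, 16, 44 and 54 at E11.5 and 14, 27 and 13 at E12.5. It fell 15.9-fold over the whole span (log2 -3.99, SE 0.54, adjusted p = 0.000424 in edgeR). Tfec, a relative of Mitf that is active in the pigment epithelium and in macrophages, stood at 1.62 ± 0.269 CPM at E11.5 and at 0.412 ± 0.111 CPM at E12.5 (n = 3 each).

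Several genes that define mature melanocytes were barely detected. Mlana, a melanosome membrane protein, had at most 4 counts in any library. Tyr had 7, 2 and 0 counts at E11.5 and 1, 16 and 8 at E12.5, while Tyrp1 had 0 counts in all 3 E11.5 libraries and at most 1 at E12.5. Slc45a2, a melanosome transporter, had 1 count in each E10.5 library, 1, 1 and 5 at E11.5 and 8, 10 and 3 at E12.5. At E12.5 these libraries thus held more reads of Dct and Pmel than of Tyrp1 or Mlana. For Tyr this was so in E12.5 replicates 2 and 3, while replicate 1 had 1 count of Tyr. These counts are not scaled for length, and the exons span 7108 bases for Tyr but 1057 for Mlana. Which of Tyr and Mlana had more transcripts is therefore not shown.

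MITF binds E-boxes of the forms CACGTG and CATGTG. Promoters that hold such an E-box are shown for Dct, Tyr, Tyrp1 and Trpm1, which were high in E10.5 replicate 1, and for Sox8, which was not. Oca2, also high in that library, is not shown. Mc1r, Slc24a5, Mlph and Rab27a each had a window with an E-box too and are not shown. E10.5 replicate 1 held 0.0, 12.8, 12.7 and 7.98% of their summed CPM over the 9 libraries. The windows of Mitf, Gpnmb and Tfec held neither form and are not shown either. The part of MITF in the levels of these genes was not tested. Each sequence is the stretch of 160 bases before the start of transcription from RefSeq, on the gene's own strand in GRCm38.p6, with E-boxes of either form in capitals. The Dct stretch is at chr14:118052247-118052406 (minus strand), that of Tyr at chr7:87493513-87493672 (minus strand), that of Tyrp1 at chr4:80834053-80834212 (plus strand), that of the first start of Trpm1 at chr7:64153675-64153834 (plus strand) and that of Sox8 at chr17:25570687-25570846 (minus strand).
Dct: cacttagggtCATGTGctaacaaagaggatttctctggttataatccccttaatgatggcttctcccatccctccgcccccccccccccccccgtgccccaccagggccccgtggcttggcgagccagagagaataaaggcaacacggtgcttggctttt
Tyr: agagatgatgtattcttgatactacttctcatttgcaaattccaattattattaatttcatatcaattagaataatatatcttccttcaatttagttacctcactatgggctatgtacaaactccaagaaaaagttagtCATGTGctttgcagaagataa
Tyrp1: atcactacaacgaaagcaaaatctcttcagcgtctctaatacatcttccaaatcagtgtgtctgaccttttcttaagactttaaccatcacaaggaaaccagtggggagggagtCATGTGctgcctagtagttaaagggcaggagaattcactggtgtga
Trpm1: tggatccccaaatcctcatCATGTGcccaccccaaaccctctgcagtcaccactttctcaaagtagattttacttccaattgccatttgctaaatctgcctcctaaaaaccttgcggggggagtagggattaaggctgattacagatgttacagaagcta
Sox8: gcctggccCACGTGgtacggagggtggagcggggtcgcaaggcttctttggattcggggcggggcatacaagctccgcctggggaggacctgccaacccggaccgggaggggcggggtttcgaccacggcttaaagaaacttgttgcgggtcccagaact

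In the 250 bases before the start, searched on both strands, CATGTG was found at 150 and 232 bases upstream of Dct, at 21 bases upstream of Tyr and at 46 bases upstream of Tyrp1. It was found at 141 bases upstream of the first start of Trpm1. Sox8 held a CACGTG at 152 bases upstream, while the windows of Fabp7, Ednrb, Mitf and Kit held neither form. Of the 32851 RefSeq windows of this length, 6.02% held CACGTG, 12.3% held CATGTG and 17.6% held either. Of the 14 further pigment genes 10 had a window, and 8 of the 10 held an E-box of either form. Of the 12 glial genes 6 had a window, and 1 of the 6, Egr2, held one. Counted by window, as the share of all windows is, an E-box was found in 9 of 12 for the pigment genes. For the glial genes it was found in 4 of 10, all of Egr2. The cores ACAAAG and ACAATG, which SOX proteins bind, were found in 16.5% and 10.7% of all windows and, among the windows of the 8 genes, in that of Dct. There ACAAAG stood at 141 and 192 bases and ACAATG at 167 bases upstream. A match of letters is a description and not a site of binding, and the windows of overlapping starts of a gene share sequence. The promoters of Sox10 and Pmel are not shown.

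The order of the 8 genes, compared per length as CPM per kilobase of transcript, turned over between the stages. At E10.5 Fabp7 (8.37 ± 3.19), Sox8 (7.08 ± 1.94) and Kit (6.13 ± 0.681) led with each neighbour overlapping. Below them came Pmel (2.37 ± 1.99), Ednrb (2.33 ± 0.765) and Sox10 (1.93 ± 0.439), which overlapped, then Mitf (1.12 ± 0.440) and Dct (0.294 ± 0.254). Sox10 was thus the sixth of the 8 genes at this stage. At E11.5 Sox10 (4.92 ± 0.331), Sox8 (4.73 ± 0.379) and Kit (4.54 ± 0.249) led and overlapped, ahead of Ednrb (2.41 ± 0.275) and Fabp7 (2.09 ± 0.619), with Pmel (0.554 ± 0.206), Mitf (0.533 ± 0.0631) and Dct (0.0519 ± 0.0314) last. At E12.5 Sox10 led without overlap at 10.2 ± 2.09 per kilobase. Sox8 (4.84 ± 0.654), Ednrb (4.50 ± 0.483), Fabp7 (3.82 ± 0.965) and Kit (2.64 ± 0.710) followed with each neighbour overlapping, then Pmel (1.19 ± 0.234), Mitf (0.509 ± 0.0512) and Dct (0.224 ± 0.0705), each apart from the next.

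The genes whose pattern over the 9 libraries was most like that of each of the 8 were found by the root-mean-square difference of centred log2 CPM among 14514 genes. For Sox10 they were Lmcd1 (0.152), C1qtnf6 (0.167) and Ntng1 (0.185), against a root-mean-square deviation of Sox10 from its own mean of 0.997. For Kit they were Naa25 (0.0878), Lbr (0.0879) and Nup205 (0.0900), against 0.548. Snap91, Kirrel3 and Jade2 came closest to Ednrb (0.105 to 0.14, against 0.506), and Nmnat2, Ttyh1 and Ckb to Fabp7 (0.263 to 0.295, against 0.864). Trip10, Pus7 and Lrrfip1 came closest to Sox8 (0.151 to 0.153, against 0.326), and Nim1k, A930024E05Rik and Gm6477 to Mitf (0.23 to 0.238, against 0.569). Dct had Pmel as its closest gene of all (0.51, against 1.12), followed by Cdh22 and Acta2. For Pmel, Dct was the third (0.51, against 0.939) after Rpl24 and Gm5561. Of the 8 genes, Dct and Pmel were the only pair of which each was among the 3 closest of the other, and both have low counts and share the high E10.5 replicate 1.

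**Figure D5:**
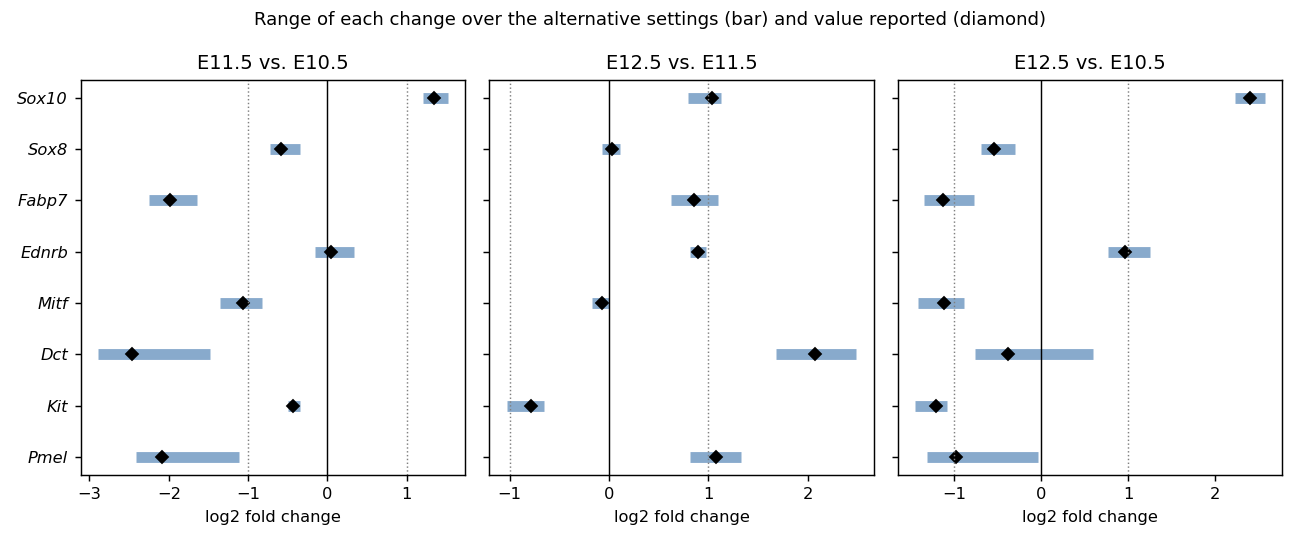
Log2 fold change of each of the 8 genes (y axis) in the 3 comparisons (panels): the diamond is the value given above, and the bar runs from the lowest to the highest value over the other fits, including those with a library left out (x axis). The bars of Dct and Pmel are the widest, that of Dct from E10.5 to E12.5 crosses 0 (-0.76 to 0.59), and those of Sox10 stay above 0 in every panel.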

How the data were processed

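Lambdoidal junction tissue of C57BL/6J embryos of 3 stages was sequenced by the study in 3 libraries per stage, each from pooled embryos. The reads were mapped to GRCm38/mm10 with HISAT2 2.0.5 and counted per gene with featureCounts; strand use and multi-mapping are not given in the sources used here. The authors deposited whole-number counts per gene and library, which were used for every test, and FPKM values, used only beside the levels per kilobase. The deposited mean normalized counts (signal), log2 fold changes and p-values are the authors' own comparisons from DESeq2 and were not used.

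Each pair of stages was tested on its 6 libraries with edgeR 4.0.16 (filterByExpr, trimmed mean of M-values, glmQLFit and glmQLFTest) in R 4.3.3, with Benjamini-Hochberg adjustment over all genes tested. A DEG had an adjusted p of at most 0.05 and a log2 fold change of at least 1. All 9 libraries were used for the test of the 3 stages together and for the difference between the 2 intervals. CPM were set on TMM-scaled library sizes of the 9 libraries, with 3 counts per library as the floor of detection. P-values measure the spread between pools, counting error is that of amplified reads without molecular identifiers, and total counts were 16581009 to 20836804. The fits were tested on simulated counts.

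The 8 genes, the gene lists and the motifs were chosen with earlier results of these data known. All 8 genes are described. Some genes of the further lists are not reported here and are left out of the counts and sums of their list. Of each further list, the genes called in any comparison are named, with values for at most 6 of the smallest p, beside genes with 3 counts or fewer in every library and markers described for their role. Alternatives were DESeq2 1.42.0, other scalings and filters, all 9 libraries in 1 fit, a replicate block, removal of a GC trend (lowess, span 0.3), other thresholds and each library left out. Promoter windows came from RefSeq (GRCm38.p6). Sex of the embryos is not given in the sources used here.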

Additional observations from a re-analysis of the deposited data

Results flagged for a closer look

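Fabp7 changed unevenly over the 2 intervals: its log2 change from E11.5 to E12.5 minus that from E10.5 to E11.5 was 2.86 (SE 0.58, adjusted p = 0.0346 in edgeR's quasi-likelihood test on all 9 libraries). All 3 E11.5 libraries lay below all 3 E10.5 libraries and all 3 E12.5 libraries. The call was lost without E11.5 replicate 1 (2.76, adjusted p = 0.227), E11.5 replicate 2 (3.38, 0.0654), E11.5 replicate 3 (2.52, 0.218), E12.5 replicate 1 (2.94, 0.0969) or E12.5 replicate 3 (2.63, 0.0775), with the same direction in each.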

How the results depend on the processing

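Of the 8 genes, 2, 2 and 4 were DEGs in the first interval, the second interval and the whole span, 7 passed the test of the 3 stages together and 1 passed that of the difference between intervals. The first count was 5 with all genes of at least 1 count, with DESeq2 or with all 9 libraries in 1 fit, and 4 with a GC trend removed. The second was 1 with at least 10 counts in every library, with a GC trend removed (with or without a replicate block), with all 9 libraries in 1 fit or at an adjusted p of 0.01, and 4 with no fold threshold. At an adjusted p of 0.01, the whole span gave 2, the 3 stages together 4 and the difference between intervals 0 (edgeR, 4 at an unadjusted p under 0.05, and 3 at 0.05 with DESeq2), and the last was 3 with all genes of at least 1 count or with DESeq2. Leaving out each library gave 1 to 4, 0 to 3, 2 to 4, 5 to 7 and 0 to 1 for these 5 counts. The first was 1 without E11.5 replicate 1 or 3 and 4 without E10.5 replicate 3. The second was 0 without E11.5 replicate 2 (6 at an unadjusted p under 0.05) and 1 without E11.5 replicate 1, E12.5 replicate 1 or E12.5 replicate 3, and the third was 2 without E12.5 replicate 1 or 2. The third was 5, with Ednrb added, under upper quartile normalization, with a GC trend removed (with or without the block) and with no fold threshold.

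For the glial genes (3, 3 and 5 DEGs), the second interval gave 5 with no fold threshold, the whole span gave 3 with at least 10 counts in every library or at an adjusted p of 0.01, and leaving out each library gave 1 to 3, 2 to 5 and 3 to 6. For the further pigment genes (2, 1 and 2), an adjusted p of 0.01 gave 1 in the first interval and 1 over the whole span, and at least 10 counts in every library gave 0 in the second interval, where Tfec was not tested, and 1 over the whole span. Leaving out each library gave 1 to 2, 0 to 1 and 1 to 2. Directions of 3 values turned, of which none was a DEG: those of Ednrb in the first interval (-0.15 to 0.33 over the fits without a library), Sox8 in the second (-0.03 with a GC trend removed, with or without the block, and -0.07 to 0.11 without a library) and Dct over the whole span (-0.76 to 0.59, the highest being without E10.5 replicate 1). The cause of these changes was not tested.

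Replicate numbers showed no clear pairing of the libraries. Deviations of libraries with the same number correlated at -0.151 to 0.22 between stages, and those with different numbers at -0.219 to 0.223. With the replicate block the counts for the 8 genes were 2, 3 and 4, Pmel being added in the second interval (log2 1.11, adjusted p = 0.0385 in edgeR). Genes of few counts, such as Dct, Tyr and Mlana, are limited by depth, and the 3 pools per stage limit all calls.

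Over all genes, the 954 DEGs of the first interval became 462 at an adjusted p of 0.01, 1849 with no fold threshold, 1592 without E10.5 replicate 3, 395 when E11.5 replicate 1 was left out and 453 when replicate 3 of that stage was. The 806 of the second became 498, 1926, 502 when E11.5 replicate 2 was left out and 512 when E12.5 replicate 1 was. The 2392 of the whole span became 3906 with no fold threshold, and the 4630 genes of the 3 stages together became 2475 at 0.01. The 194 genes whose intervals differed became 37 at 0.01, 700 with all genes of at least 1 count, 111 with at least 10 counts in every library, 467 with DESeq2, 322 with a GC trend removed and the block, and 27 to 437 with a library left out.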
